A study of Mus musculus with 3 samples.

Results

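The Hox genes are the coding genes of the mouse Hoxa, Hoxb, Hoxc and Hoxd clusters. They were taken as every protein-coding gene of GENCODE vM21, on mm10, with a symbol of Hoxa, Hoxb, Hoxc or Hoxd and a number. This gave 39 of 21938 coding genes, 11 in Hoxa, 10 in Hoxb, 9 in Hoxc and 9 in Hoxd. The symbol alone decided which genes entered, but the group was chosen with earlier results of these data known. The series profiled HBO1 by ChIP-seq in Oct1 deficient mouse ESCs, in 2 ChIP samples beside 1 input, the sheared chromatin before any antibody. All 3 samples had the same genotype and came from ESCs grown with 3 µM CHIR99021, a GSK3 inhibitor, 1 µM PD0325901 (PD03259010 in the labels), a MEK inhibitor, and ascorbic acid. The study's methods add LIF and a feeder layer of fibroblasts that was depleted before experiments, and the cells were crosslinked with 1% formaldehyde. No wild-type ESCs or other conditions were compared, so that the genotype, the medium and the measurement cannot be told apart. For the second ChIP sample the antibody label reads HBO2, where the sample title and the study's methods have HBO1, and the sources used here do not say whether the cells are 1 clone. A title in the study's supplement calls the cells wild type, and the genotype of the labels was followed here without a test. The authors deposited 1 list of 13823 peaks, called against local background, with no values per ChIP sample. There is therefore no spread between replicates, no test was made, and each interval below covers counting error only. Neither the ESC identity of the cells nor the transcript levels of Hox genes could be checked, since no expression was measured.

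Hox proteins are transcription factors with a homeodomain that give cells of the embryo their position along the body axis. Each cluster holds paralogs in an order that follows where and when they are used, from low numbers in the hindbrain and neck to high numbers in the limbs, trunk end and urogenital tract. In ESCs the clusters are known as CpG-rich chromatin held by Polycomb proteins, with little transcription. HBO1, also called KAT7, is an acetyltransferase of the MYST family that modifies histones H3 and H4, and Jade1 is one of the proteins that bring it to chromatin.

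A peak list shows positions only, so the sequences below show the DNA around summits of HBO1 peaks at Hox genes and what lay at GC-rich Hox starts where none was called. The first is 300 bases of the coding exon of Hoxa4 under the peak nearest to its TSS, on the minus strand, chr6:52191239-52191538 of mm10, with 49 CpGs. The next pair is from upstream of Hoxb9, both on the plus strand, chr11:96269942-96270241 with 16 CpGs and chr11:96270976-96271275 with 19 CpGs. The fourth is from the coding exon of Hoxc12, plus strand, chr15:102936996-102937295, with 39 CpGs. The fifth, of 200 bases, is from the last coding exon of Hoxc13, plus strand, chr15:102927220-102927419, with 13 CpGs, and in Hox genes this exon carries the homeobox. Each is centred on the summit, and both Hoxb9 stretches run slightly past an edge of their peak. Each runs 5′ to 3′ on the strand of the gene, and capitals mark CpG dinucleotides.
Hoxa4 exon peak: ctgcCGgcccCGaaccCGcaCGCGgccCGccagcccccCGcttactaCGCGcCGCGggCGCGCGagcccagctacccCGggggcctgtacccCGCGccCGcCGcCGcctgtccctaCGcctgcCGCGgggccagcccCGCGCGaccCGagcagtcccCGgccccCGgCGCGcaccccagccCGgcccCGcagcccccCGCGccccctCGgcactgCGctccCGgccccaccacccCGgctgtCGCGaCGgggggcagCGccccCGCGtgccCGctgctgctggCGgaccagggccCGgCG
Hoxb9 distal upstream peak: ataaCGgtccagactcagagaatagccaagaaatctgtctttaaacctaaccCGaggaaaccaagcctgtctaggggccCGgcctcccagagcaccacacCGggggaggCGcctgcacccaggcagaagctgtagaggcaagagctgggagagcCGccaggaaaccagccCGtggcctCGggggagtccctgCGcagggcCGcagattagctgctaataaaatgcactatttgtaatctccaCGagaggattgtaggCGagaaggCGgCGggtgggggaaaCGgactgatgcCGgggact
Hoxb9 proximal upstream peak: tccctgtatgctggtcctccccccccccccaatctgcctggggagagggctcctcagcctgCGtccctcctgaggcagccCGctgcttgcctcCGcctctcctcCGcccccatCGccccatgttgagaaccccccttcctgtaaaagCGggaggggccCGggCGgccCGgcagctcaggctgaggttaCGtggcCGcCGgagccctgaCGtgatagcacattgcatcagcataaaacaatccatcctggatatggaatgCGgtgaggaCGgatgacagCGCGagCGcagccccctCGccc
Hoxc12 exon peak: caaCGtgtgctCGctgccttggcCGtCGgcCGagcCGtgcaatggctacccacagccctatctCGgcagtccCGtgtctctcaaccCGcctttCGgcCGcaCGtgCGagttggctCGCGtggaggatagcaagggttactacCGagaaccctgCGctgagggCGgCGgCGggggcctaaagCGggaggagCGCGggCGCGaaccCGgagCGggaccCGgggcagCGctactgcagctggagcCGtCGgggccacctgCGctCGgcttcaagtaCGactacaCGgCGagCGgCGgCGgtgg
Hoxc13 last exon peak: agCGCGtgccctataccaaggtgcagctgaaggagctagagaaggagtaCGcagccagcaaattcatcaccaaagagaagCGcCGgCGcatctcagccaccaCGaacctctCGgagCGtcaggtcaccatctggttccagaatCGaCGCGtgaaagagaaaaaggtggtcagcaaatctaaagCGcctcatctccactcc

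The Hoxa13 and Hoxd13 starts had 73.9 and 72.4% GC in the 1 kb around the TSS, close to the 73.8% of Hoxa4. Of 280 other coding genes in their class of 2 percentage points of GC, 55.7% had a peak within 1 kb. Hoxa13 and Hoxd13 had none. The 250 bases before their starts in RefSeq on GRCm38.p6 are shown with CpGs in capitals, chr6:52260881-52261130 on the minus strand for Hoxa13, with 35 CpGs, and chr2:74667975-74668224 on the plus strand for Hoxd13, with 31 CpGs. The stretches at peaks shown above had 49 and 39 CpGs at Hoxa4 and Hoxc12 and 13 to 19 at Hoxb9 and the last exon of Hoxc13. Stretches of 300 bases at the Hoxa5 peak and the Hoxc13 intron peak, not shown, had 33 and 32. The windows differ in length and place, since those at peaks are centred on summits, so these counts do not rank them. The RefSeq table of promoters held 22 of the 39 Hox genes.
Hoxa13 promoter: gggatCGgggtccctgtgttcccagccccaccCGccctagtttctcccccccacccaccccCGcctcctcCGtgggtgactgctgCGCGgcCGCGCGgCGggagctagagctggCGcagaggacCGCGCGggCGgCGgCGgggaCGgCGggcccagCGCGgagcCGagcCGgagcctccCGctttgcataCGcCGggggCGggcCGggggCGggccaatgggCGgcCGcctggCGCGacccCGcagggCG
Hoxd13 promoter: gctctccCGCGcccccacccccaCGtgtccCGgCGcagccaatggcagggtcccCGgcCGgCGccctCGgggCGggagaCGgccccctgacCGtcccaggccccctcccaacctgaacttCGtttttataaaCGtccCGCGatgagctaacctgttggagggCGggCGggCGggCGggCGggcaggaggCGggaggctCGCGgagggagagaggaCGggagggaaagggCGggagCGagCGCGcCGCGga

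An HBO1 peak lay within 1 kb of the outermost TSS of 5 of the 39 Hox genes, namely Hoxa4, Hoxa5, Hoxb9, Hoxc12 and Hoxc13. This is 12.8% (exact binomial 95% interval 4.30 to 27.4%), against 18.7% of all coding genes. Peaks were more frequent at GC-rich starts, so the share was also taken over the other coding genes in the same classes of 2 percentage points of GC in the 1 kb around the TSS, weighted by the number of Hox genes in each class. Over these 18559 genes it was 22.2% (21.4 to 23.0%), which would place 8.66 Hox genes near a peak, 1.73 times the number found. The interval of the Hox genes includes the share at like GC, so a difference was not detectable with 39 genes at this GC window. With GC taken over 500 bp the share at like GC was 17.4%, inside the interval, and over 2 kb it was 28.0%, just above its upper end. Hox genes are neighbours, and starts that lie close together share a peak or its absence, which makes the interval too narrow. Hoxd3 and Hoxd4, for example, have outermost TSSs 2 bp apart. Their protein-coding transcripts start farther apart, with the closest start 119979 bp from a peak for Hoxd3 and 130030 bp for Hoxd4.

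**Figure D1:**
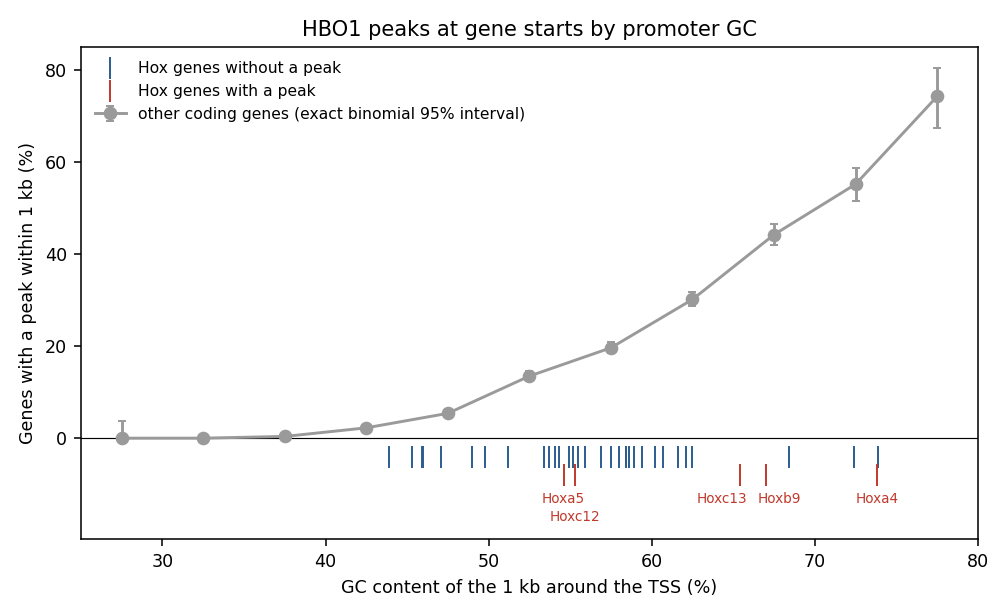
Share of other coding genes with an HBO1 peak within 1 kb of the TSS (%, points with exact binomial 95% intervals) against GC content of 1 kb at the TSS in classes of 5 points, with the 39 Hox genes as ticks, red with and blue without a peak. The share reached 44.3% at 65 to 70% GC and 55.2% at 70 to 75%, and 3 of the 6 Hox genes above 65% GC had a peak.

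The 5 Hox genes with a peak were spread over 3 clusters and 5 paralog groups. Hoxa4, a gene of neck identity, had a peak 132 bp from its TSS, of 3.37-fold enrichment and a −log10 q of 15.2. Both are the authors' values, the enrichment being the ChIP signal over local background and the q that of their peak caller, whose list ends at a −log10 q of 2.30. This was the stronger of the pair of peaks at neighbouring starts of Hoxa. Hoxa5, which acts in the cervical and upper thoracic spine and in the lung, had a peak 354 bp away with a fold of 3.04 and a −log10 q of 10.3. Both peaks had their summit downstream of the TSS in a coding exon, 364 bp in Hoxa4 and 653 bp in Hoxa5. They are the only Hox genes that kept a peak within 1 kb when its −log10 q had to reach 10.

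Hoxb9, which acts with its paralogs in thoracic patterning, had 2 peaks upstream of its start. The near one, chr11:96270885-96271264, had its summit 331 bp upstream, a fold of 2.30 and a −log10 q of 5.33. The farther one, chr11:96269966-96270263, had its summit 1365 bp upstream, a fold of 4.39, the highest of any peak in the Hox regions, and a −log10 q of 18.3. Both lay between genes in the annotation, and only the weaker one fell inside the limit of 1 kb.

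At the posterior end of Hoxc both genes with the highest numbers had a peak. Hoxc12 had one 58 bp from its TSS, chr15:102936815-102937446, with a fold of 2.58 and a −log10 q of 7.71 and a summit 389 bp inside the gene, in a coding exon. Hoxc13, known for its part in hair and nail formation, had one 735 bp from its TSS, chr15:102921838-102922115, with a fold of 1.80, a −log10 q of 2.71 and a summit in the intron. A further peak in its last coding exon, chr15:102927083-102927450, had a fold of 2.01 and a −log10 q of 2.33. These Hoxc13 peaks were the weakest of the Hox regions by both measures. The exon peak was also the only one in the Hox regions with over 3 times the input of like GC, at 38 read ends in the 1 kb around its summit against 11, a ratio of 3.45, and the part of input in it was not tested.

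**Figure D2:**
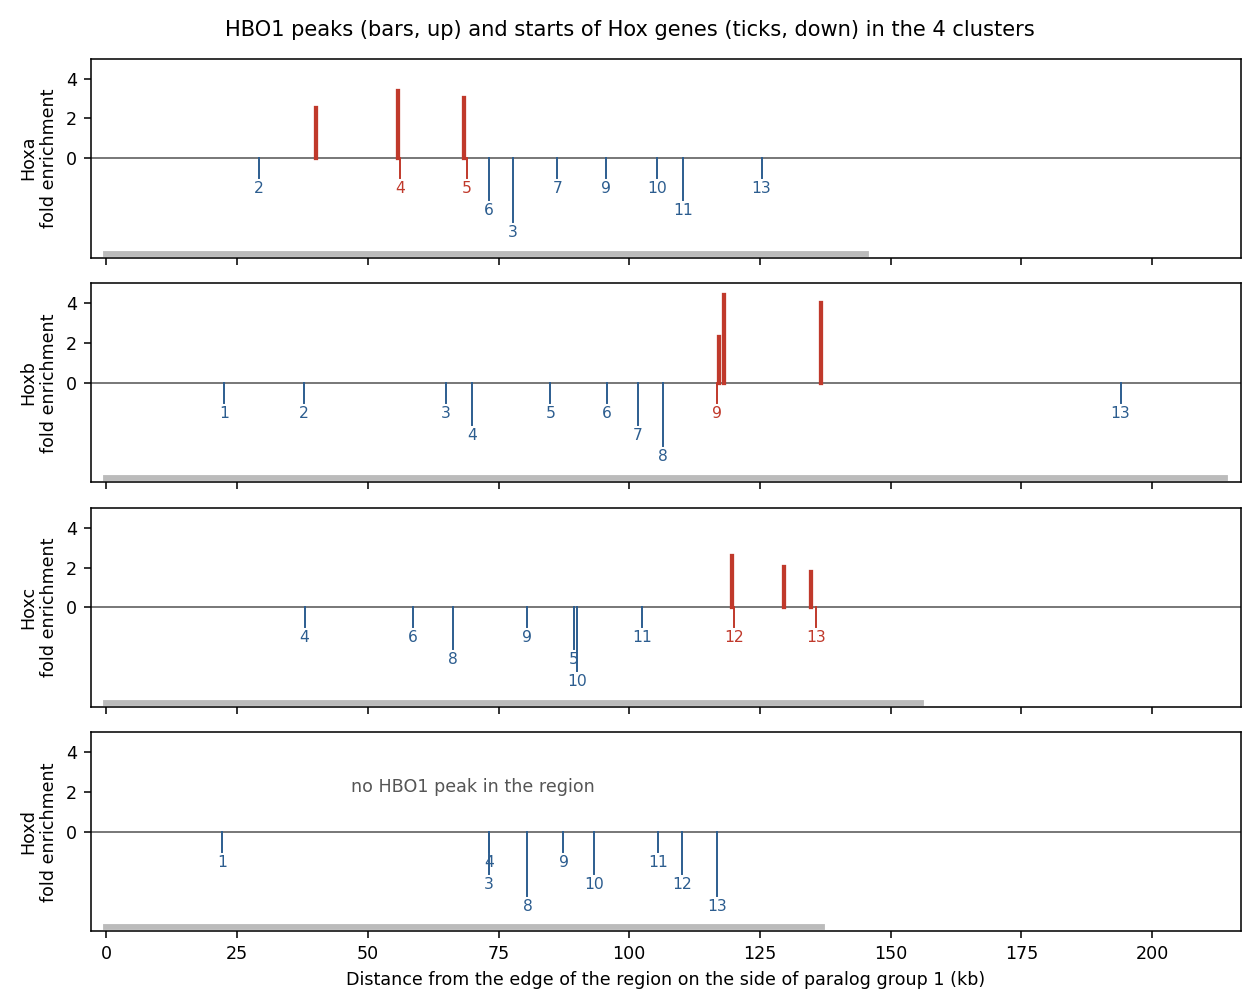
HBO1 peaks (red bars, height is the authors' fold enrichment) and starts of Hox genes (ticks below, labelled by paralog number, red with a peak within 1 kb) along the 4 regions, in kb from the edge on the side of paralog group 1, with a grey bar for the length of each region and 1 start of Hoxa not drawn. Hoxa, Hoxb and Hoxc held 3 peaks each and Hoxd held 0.

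Of the other 34 Hox genes, 2 lay between 1 and 10 kb from a peak. Hoxa6, a thoracic gene, was 4489 bp away. Hoxa3, needed for the thymus and parathyroid, was 9103 bp away from its outermost TSS, which lies upstream of Hoxa6. The remaining 32 Hox genes were over 10 kb from any peak, 82.1% of the 39 against 68.4% of coding genes at like GC. Over 50 kb the numbers were 17 Hox genes, or 43.6%, against 39.2%. The median distance was 38993 bp for Hox genes, 31503 bp at like GC and 40334.5 bp for all coding genes. The Hox genes thus lay about as far from a peak as coding genes in general, while a larger share of them than of genes at like GC was beyond 10 kb. No interval was taken for this share, and neighbours with the same nearest peak are not independent, so counting error may cover the difference.

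Distances followed the position of the few peaks in each cluster. In Hoxa the distance grew from Hoxa7 on along the cluster, with 17621 bp at Hoxa7, 26856 bp at Hoxa9, a gene of blood progenitors, 36621 bp at Hoxa10 and 41577 bp at Hoxa11, genes of the uterus and limb, and 56647 bp at Hoxa13, a gene of digits and the genital tract. On the other side Hoxa2, a gene of the hindbrain and branchial arches, was 10713 bp away. The peaks of Hoxa lay between Hoxa2 and the start of Hoxa5, and from Hoxa6 on to Hoxa13 there was none.

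Hoxb showed the opposite layout, with its peaks at and beyond the posterior start of Hoxb9. Hoxb8 was 10641 bp and Hoxb7 15359 bp from a peak. Distance then grew over Hoxb6, Hoxb5 and Hoxb4 to 52062 bp at Hoxb3, 79261 bp at Hoxb2 and 94488 bp at Hoxb1, which sets the identity of a segment of the hindbrain. Hoxb13, a gene of the prostate and tail that stands apart from the rest of its cluster, was 57163 bp away. Hoxb8 down to Hoxb1, 8 genes in a row, had no peak near them, and neither did Hoxb13.

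In Hoxc distance likewise grew away from the posterior end. It was 16981 bp at Hoxc11, 29350 bp at Hoxc10, a gene of lumbar motor neurons, 38993 bp at Hoxc9, 53161 bp at Hoxc8, 60811 bp at Hoxc6 and 81488 bp at Hoxc4. Hoxc5 was 29997 bp away from an outermost TSS that lies 647 bp from that of Hoxc10, far from its own coding exons.

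Hoxd differed from the other clusters in that no gene of it was near a peak. Its 9 genes were 76362 to 171032 bp away, with a median of 105779 bp. Hoxd13, a gene of the digits, was the nearest, and Hoxd1 the farthest. Between them Hoxd12, Hoxd11, Hoxd10, Hoxd9, Hoxd8, and Hoxd3 and Hoxd4, genes of the neck vertebrae, followed in this order, since all 9 had the same nearest peak outside the cluster. At like GC 2.63 of the 9 genes would have had a peak, and in Hoxa 2.76, in Hoxb 1.46 and in Hoxc 1.81, against 2, 1 and 2 found. Whether 0 of 9 differs from these other clusters was not tested.

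**Figure D3:**
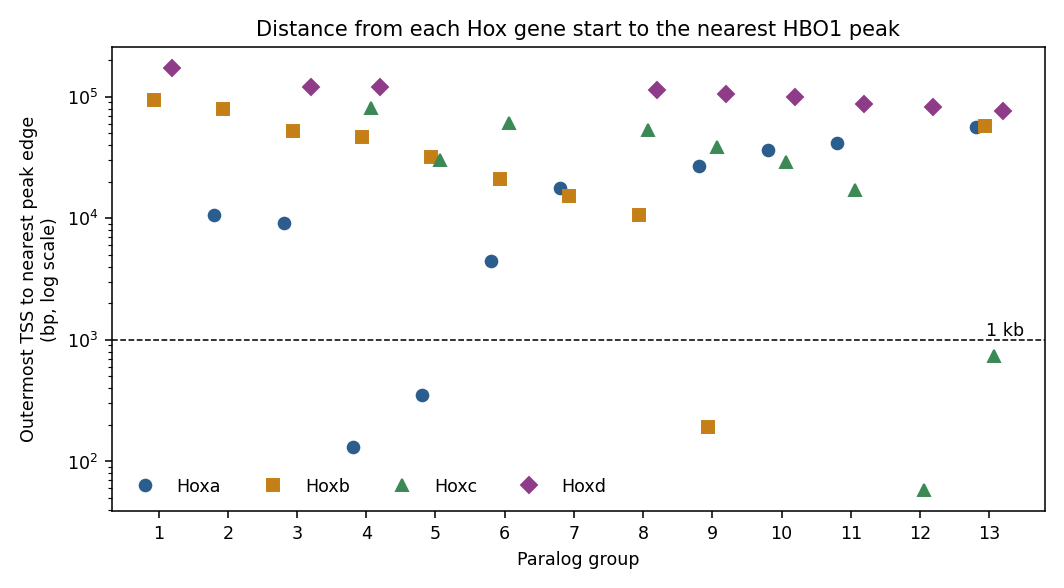
Distance from the outermost TSS of each Hox gene to the nearest HBO1 peak edge (bp, log scale) by paralog group, with 1 symbol per gene and 1 colour per cluster, 1 gene not drawn, and a dashed line at 1 kb. The 5 points below the line are Hoxa4, Hoxa5, Hoxb9, Hoxc12 and Hoxc13, and the Hoxd genes lie between 76362 and 171032 bp.

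Along the body axis the counts did not gather in 1 section. Of the anterior genes, paralog groups 1 to 4, 1 of 12 had a peak, against 2.65 at like GC. Of the central genes, groups 5 to 8, 1 of 11 had one, against 1.92, and of the posterior genes, groups 9 to 13, 3 of 16, against 4.09. No paralog group had more than 1 gene with a peak, so that at Hoxa4, for example, Hoxb4, Hoxc4 and Hoxd4 had none.

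GC content alone did not separate Hox genes with a peak from those without. The 1 kb around the TSS had a median of 65.4% GC in the 5 genes with a peak (54.6 to 73.8%) and 57.2% in the others (43.9 to 73.9%). Of the 6 Hox genes above 65% GC, Hoxa4, Hoxb9 and Hoxc13 had a peak, and Hoxa13, Hoxd13 and Hoxd1 did not. CpGs were nearer to the number that base composition gives in the genes with a peak, with a median ratio of observed to expected CpG of 0.893 (0.703 to 0.995) against 0.644 (0.181 to 0.931). In other coding genes the medians were 0.825 with a peak and 0.427 without. The ranges overlapped in Hox genes, with Hoxa13 at 0.931 and Hoxd13 at 0.899 and no peak.

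The input was examined at the same starts, since it is uneven in GC. Within 1 kb centred on the TSS, Hox genes had a median of 66 input read ends (0 to 124), against 60 at like GC, and 21 of the 39 were above the median of their GC class. Genes with a peak had a median of 74 read ends (51 to 124) and those without had 66 (0 to 104). Hoxb2 was at 0 read ends, which at a limit of 3 counts allows little to be said of its start, and its GC class had a median of 4. The Hoxd starts, which had no peak, held 29 to 104 read ends with a median of 74. Some starts without a peak were well below their GC class, with 14 read ends against 49 at Hoxb4, 2 against 10 at Hoxc4, 25 against 49 at Hoxa10 and 29 against 59 at Hoxd12. Input at Hox starts thus lay on both sides of like GC, and its part in where peaks were called was not tested.

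**Figure D4:**
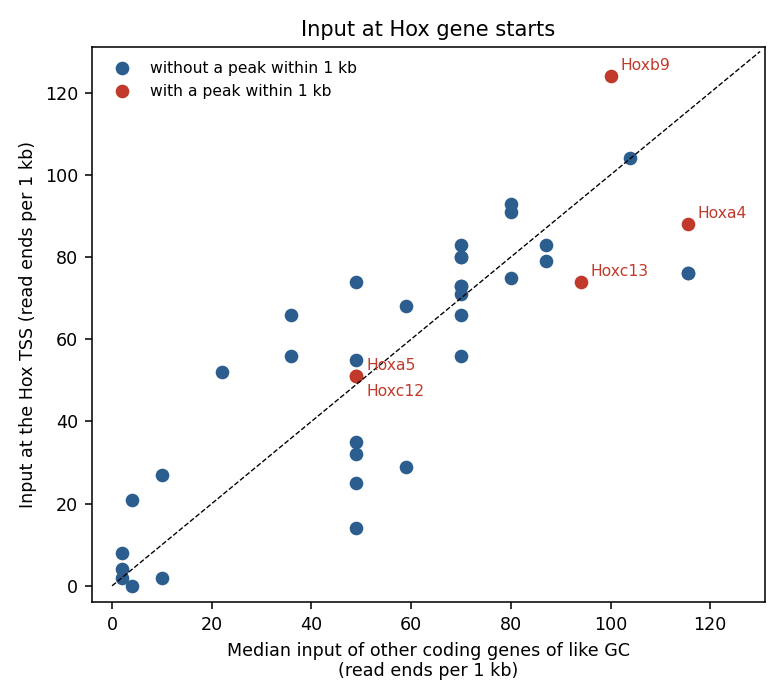
Input read ends within 1 kb centred on the start of each Hox gene against the median of other coding genes of like GC, with the dashed line marking equal values, red with and blue without a peak within 1 kb. Of the 39 genes, 21 lie above the median of their GC class, with and without a peak alike.

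The whole clusters, from the first to the last Hox gene with 20 kb on each side, were then compared with the rest of the genome. They were chr6:52135590-52280880 for Hoxa, chr11:96174316-96388256 for Hoxb, chr15:102901103-103056852 for Hoxc and chr2:74648310-74785142 for Hoxd, 651.815 kb in all. They had 47.8 to 48.5% GC against 41.7% in the genome, and 16.9 to 25.0% of repeat sequence against 36.4%. Hoxa, Hoxb and Hoxc held 3 peaks each and Hoxd held 0, 1.38 per 100 kb against 0.522 per 100 kb of the genome. The number of summits in 1-kb stretches of the same GC elsewhere gave 16.2 for the Hox regions, so that the 9 found were 0.554 times as many (exact Poisson 95% interval 0.253 to 1.05). Whole autosomal stretches of the same length and like GC gave another number. They had on average 2.03, 2.89, 2.14 and 1.89 peaks for Hoxa, Hoxb, Hoxc and Hoxd, 8.96 in sum, close to the 9 found, and those with at least 5 coding TSSs had 12.7 in sum. The Hox regions therefore held more peaks than average DNA, about as many as stretches of their length and GC, and fewer than the 1-kb rate gives. The interval of the ratio to the 1-kb rate included 1 here, but with flanks of 50 kb the ratio was 0.504 (0.231 to 0.957), and with peaks of −log10 q from 10 only it was 0.851 (0.232 to 2.18), from 4 peaks. Whether the lower number is beyond counting error thus depended on these choices.

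Most of the difference from the 1-kb rate was in Hoxd. That rate gave 4.85 peaks there, and 0 were found, a count that allows up to 3 as a one-sided 95% limit. Hoxd is the lowest of the 4 regions, and this limit takes no account of that choice. The limit and the Poisson intervals also take peaks as independent of each other, so they are too narrow where peaks lie in groups. In Hoxa it gave 4.32, in Hoxb 4.17 and in Hoxc 2.91, against 3 found in each. Without Hoxd the ratio was 0.790, and without Hoxc it was 0.450 (0.165 to 0.979), which also ends below 1. Of the 1118 autosomal stretches as long as Hoxd and of like GC, 26.4% also had no peak, and of the 222 among them with at least 5 coding TSSs, 14.0% did. A stretch of this length and GC without a peak was thus not rare. The Hoxd region itself held 11 coding TSSs, and stretches with as many were not counted apart. Of stretches like Hoxa, Hoxb and Hoxc with at least 5 coding TSSs, 68.5, 52.5 and 62.2% had no more peaks than these clusters.

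In each class of GC the regions held fewer summits than the 1-kb rate gave, from small counts and with no interval taken. Of the 1-kb stretches of at least 65% GC, 12 lay in the Hox regions and 2 of them held a summit, against 4.17 at the rate elsewhere. Of these 12, 6 lay in Hoxd. From 60 to 65% GC there were 21 stretches with 2 summits against 3.45, from 50 to 60% GC 194 with 5 against 6.62, and below 50% GC 426 with 0 against 2.02. Input over the regions was 1.23 to 1.35 times that of like GC, within the central 95% of other autosomal stretches of the same length, which for Hoxa ran from 0.598 to 1.39.

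The peaks outside the clusters show how far these gaps reach. The nearest peak beyond Hoxd was 56362 bp past one edge, chr2:74591525-74591948, at the pseudogene Mrpl23-ps1 with a fold of 7.52, and 423771 bp past the other. The stretch without a peak between them, chr2:74591949-75208912, was 616.964 kb long and held 12 coding TSSs, the 9 of Hoxd and those of Evx2, Mtx2 and the read-through model Gm28230. Of the 13802 such stretches between peaks, with a median of 63.0 kb, 7.64% were as long, and 63 held as many coding TSSs of at least 50% GC, which were 11 here. The other clusters also had long stretches without a peak. One of 435.059 kb ran from the Hoxb9 start past Hoxb1, one of 252.614 kb held Hoxc11 to Hoxc4, and one of 162.87 kb held 8 Hoxa starts and Evx1. Evx1 and Evx2, homeobox genes beside Hoxa and Hoxd, were 53606 and 67609 bp from a peak.

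Of the 9 peaks in the Hox regions, 5 were within 1 kb of a Hox TSS, and 2 of the others lay at starts of non-coding genes. A peak in Hoxa, chr6:52175544-52175920, with a fold of 2.50 and a −log10 q of 6.19, had its summit 527 bp downstream of a start of the antisense gene Hoxaas3, in an intron of Hoxa3. The widest Hox peak, chr11:96251479-96252175, of 697 bp, lay 374 bp from the start of the lincRNA gene Gm53 and had the highest −log10 q of the 9, 20.2, with a fold of 4.01. Gm53 lies between Hoxb13 and Hoxb9. From another annotated TSS of Gm53 the summit was 33 bp away. Of the 49 non-coding genes that start in the regions, these were the only 2 within 1 kb of a peak, against 4.47% of all 33475 non-coding genes, which would give about the same number. The 7 microRNA genes had none, against 6.86% of all 2202, among them Mir196a-1 at 4802 bp, Mir10a at 45901 bp and Mir10b at 134122 bp, whose products target Hox transcripts or lie among their genes. Hotair, a lincRNA of Hoxc, was 10284 bp away and Hottip, a lincRNA beside Hoxa13, 58542 bp.

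In strength the Hox peaks were like peaks at other gene starts. Their fold enrichment had a median of 2.58 (1.80 to 4.39), against 2.53 over the 3649 peaks within 1 kb of a coding TSS and 3.80 over all peaks. Their −log10 q had a median of 7.71 (2.33 to 20.2), against 8.21 and 6.98. Input at the Hox peaks was above that of all peaks, with 66 read ends in the median peak (24 to 89), against 19, counted in 1 kb at the summit. Against like GC it lay on both sides, from 0.578 times at a Hoxa peak to 3.45 times at the last exon of Hoxc13. Among the 3580 peaks with 24 to 89 read ends the median fold was 2.76 and the median −log10 q 7.59. The fold of Hox peaks was thus near that of peaks with as many read ends, and the part of input in it was not tested. Their width had a median of 380 bp, against 367 bp.

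The study concerns Oct4 at octamers and at MOREs, the palindromic relative on which Oct proteins bind as dimers, so both were searched for on both strands of the reference. The octamer was ATGCAAAT without mismatch and the MORE was ATGCATATGCAT, its own reverse complement, with at most 1 mismatch. Neither holds the other as written, but a MORE with 1 mismatch can hold an octamer, which was not the case for any found here. None of the 9 Hox peaks held either, and over all 13823 peaks 0.622% held an octamer and 0.0506% a MORE. In the 1 kb around the TSS, Hoxa10 and Hoxb6 each had an octamer, 5.13% of the 39 Hox genes against 4.06% of all coding genes and 3.29% at like GC, and neither was near a peak. A MORE lay at 0 of the 39, against 0.324% of all coding genes. The Hox regions held 27 octamers, 5 in Hoxa, 10 in Hoxb, 9 in Hoxc and 3 in Hoxd, and 0 lay within 200 bp of a peak, against 0.153% of the 241741 octamers of the genome. Counts of 0 were thus what these rates give for so few peaks and sites. The nearest octamer, chr11:96269530-96269537 on the minus strand, was 432 bp from the distal peak upstream of Hoxb9 shown above. Of the 31893 MOREs of the genome 0.0909% lay within 200 bp of a peak, and 0 of the 4 in the Hox regions did. Of these 4, 2 overlapped each other in Hoxb, 34825 bp or more from a peak, and 2 were in Hoxd. The only exact one, chr2:74649167-74649178, lay between genes on the Evx2 side of Hoxd, 57225 bp from the nearest peak, and is shown in capitals with 15 bases on each side.
Hoxd MORE: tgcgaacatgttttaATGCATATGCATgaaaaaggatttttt

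Other homeobox genes were counted the same way, from lists of genes known to act with Hox proteins or to resemble them. The lists were drawn up with earlier results of these data known. The first list held 11 Meis, Pbx, Pknox and Tgif genes of the TALE class, whose products bind DNA together with Hox proteins or counter such factors. Of these, 5 had a peak within 1 kb, 45.5% (exact binomial 95% interval 16.7 to 76.6%) against 26.1% at like GC. The 5 became 3 with a limit of 500 bp, where the share at like GC was 24.2%. With peaks of −log10 q from 10 only they became 2, where it was 9.94%. With distance taken from the summit they became 4, and with the TSSs of all transcripts 6. With a limit of 5 kb they became 7, where the share at like GC was 29.4%. The 5 of the main count included Pknox1 at 224 bp with a fold of 2.81 and Tgif1 with a peak across its TSS and a fold of 3.07. The others were Pbx3 at 536 bp with 2.30, Tgif2 at 865 bp with 2.07 and Pknox2 at 350 bp with 2.24. Pbx2 was just outside the limit at 1052 bp, and Meis1, Meis2 and Pbx4 were 4939, 5244 and 7637 bp from a peak. Meis3, at 70127 bp, was far from any. The 6 Irx genes are TALE genes too but were placed in the list of other developmental genes, and 0 of them had a peak. With them counted here, 5 of 17 genes had a peak, 29.4% (10.3 to 56.0%) against 32.2% at like GC, so that the share lay above that at like GC only without them. The median distance to a peak was 1052 bp over the 11 genes and 7637 bp with the Irx genes, against 38993 bp for Hox genes, while the intervals of the shares overlapped.

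Of the 6 ParaHox genes, the relatives of Hox genes outside the clusters, 1 had a peak. It was Cdx1, a regulator of Hox genes along the trunk, with a peak across its TSS, a fold of 2.51 and a −log10 q of 12.4. Gsx1 was 16599 bp, Gsx2 31151 bp, Pdx1, a pancreas gene, 64379 bp, Cdx2, of the trophectoderm and gut, 101690 bp and Cdx4 126344 bp away. At like GC 1.69 of the 6 would have had one.

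Of 55 other developmental homeobox genes, such as the Dlx, Irx, Lhx and Nkx families, 2 had a peak, 3.64% (0.444 to 12.5%) against 28.9% at like GC, which would give 15.9 genes. Without the 6 Irx genes it was 2 of 49, 4.08% (0.498 to 14.0%) against 27.1%. The 2 were Gbx2, a gene of the midbrain and hindbrain boundary that is also expressed in ESCs, at 14 bp with a fold of 2.91 and a −log10 q of 13.9, and Six4, a gene of muscle and sense organs, at 220 bp with 3.71 and 17.9. Here the share at like GC lay above the interval. For Hox genes it lay inside with GC over 500 bp or 1 kb and just above with GC over 2 kb. With the TSSs of all transcripts 5 of the 55 had a peak, against 31.8% at like GC. Members of these families also lie next to each other, and the share in Hox genes, 12.8%, lay slightly above this interval and, without the Irx genes, inside it. Whether the lists differ from each other was not tested.

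**Figure D5:**
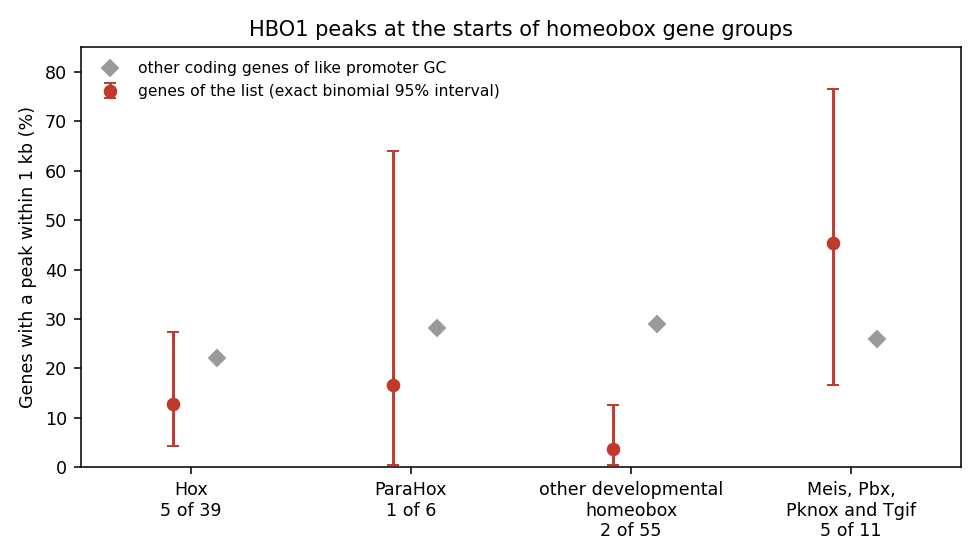
Share of genes with an HBO1 peak within 1 kb of the outermost TSS (%) in 4 lists of homeobox genes (red, with exact binomial 95% intervals) and in other coding genes of like GC (grey). The shares were 12.8% for Hox, 16.7% for ParaHox, 3.64% for other developmental homeobox genes, Irx included, and 45.5% for Meis, Pbx, Pknox and Tgif genes, and with GC over 1 kb only for the other developmental genes does the grey point lie outside the interval.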

How the data were processed

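Reads were aligned to mm10 by the authors using Novoalign 4.03.01, and peaks were called using MACS2 at q 0.005, per the submitters' processing notes and the methods. How the 2 ChIP samples were combined and whether duplicates were removed is not given in the sources used here. The deposited peak list gives a fold enrichment, the authors' ratio to local background, and a −log10 q. The deposited input gives aligned read ends with a mapping quality score, 31973678 in all, with no normalization. ChIP reads were not used here.

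Distances ran from peak edge to the outermost TSS of each gene in GENCODE vM21. Base content came from GRCm38, the assembly that mm10 names. Input at starts and peaks was counted in 1 kb with all read ends. Over whole regions, only read ends of mapping quality 20 or more entered, and windows outside 30 to 65% GC or above 200 read ends were left out. Python 3.11.15, numpy 2.4.6, scipy 1.17.1, pandas 2.3.3 and matplotlib 3.10.9 were used, and distances, shares at like GC and the sequence scan were tested on simulated data. All samples had 1 genotype, so nothing was compared between groups. The alternatives varied the TSSs, the distance limit, the peak threshold, the GC classes and windows, the flanks and the peaks of high input.

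The members and lists were chosen with earlier results of these data known. Named were all Hox genes, Evx1 and Evx2, non-coding genes of the regions within 1 kb of a peak, and members of the ParaHox, TALE (Meis, Pbx, Pknox and Tgif) and other developmental homeobox lists with a peak. Other genes were named after their values were seen. The values of 2 genes of these lists are not reported here, though they are in the counts.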

Additional observations from a re-analysis of the deposited data

How the results depend on the processing

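No paired analysis was possible because 1 peak list with no values per ChIP sample was used and no result comes from a test, and for the same reason no replicate was left out. Of 41 alternatives for the Hox results, 31 left the values within their limits, 10 moved them and 0 reversed them. The limits differed between results, so these counts do not measure stability. A ratio of 0.851 or 0.450 in place of 0.554 counted as within them, while a share of 20.5% in place of 22.2% counted as moved. The 5 Hox genes with a peak became 2 once peaks needed a −log10 q of 10, and the 9 peaks in the regions became 4. The ratio of 0.554 was 0.851 at that threshold and 0.504 with flanks of 50 kb, where its interval ended below 1. The interval also ended below 1 without Hoxc, and it included 1 under the other alternatives of the ratio. The share at like GC, 22.2%, was 17.4% with GC over 500 bp, 28.0% over 2 kb, above the Hox interval, 24.2% with the TSSs of all protein-coding transcripts, 25.2% with those of all transcripts, 17.9 and 8.27% with peaks of −log10 q from 5 and from 10, 20.5% with a limit of 500 bp and 25.8% with 5 kb, where the Hox share was 10.3, 5.13, 10.3 and 15.4% under the last 4. The Hox share was the lower one under each alternative. Classes that joined GC with CpG content or with input, and leaving out chromosome 3, part of which has more input, were added after seeing the data and gave 22.1, 21.8 and 22.0%. In the other lists 5 of 26 alternatives moved the count beyond its limit, and smaller changes were not counted as moved. All 26 were added after seeing the data. Moving the Irx genes to the list of the other TALE genes left both counts as they were but changed their shares. Among Meis, Pbx, Pknox and Tgif genes the 5 with a peak became 2 with peaks from 10 and 3 at 500 bp. Within the limit, they became 4 with distance taken from the summit, 6 with other TSSs and 7 at 5 kb. Among developmental homeobox genes the 2 became 4 at 5 kb and 5 with other TSSs. The causes were not tested. With 39 genes and 9 peaks, counting error limits every comparison.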
